A study of Mus musculus with 24 samples.

Results

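A module of 35 genes for fatty acid oxidation, ketone body formation and targets of the nuclear receptor PPARA was followed in mouse liver. The members were chosen by gene symbol, and all probes that the platform table assigns to these symbols were taken. Of the 35 genes, 33 had at least 1 such probe, 62 probes in all, among 19057 genes and 45281 probes on the array. The members with no named probe were Acsl1 and Cyp4a10. A gene was tested when a probe was detected on at least 4 arrays, which left 30 members among 10765 genes. Fabp1, Cpt1a and Vnn1 had probes that stayed below this limit, so their levels are not reported. Of the 30 tested members, 26 were detected on all 24 arrays. Cyp4a14, Acot2, Cd36 and Crot passed through part of the arrays, on 22, 19, 7 and 5 of them. The name ketogenesis rests here on Bdh1, the only tested member that acts on ketone bodies themselves.

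The study asked how lean and obese mice differ in the first response of the liver to loss of tissue. Livers came from male C57BL/6J mice aged 12 weeks, either lean controls or made obese by diet, and all bought from one supplier and kept on that supplier's diets, whose composition is not given in the sources used here. Each diet had a sham group, in which the abdomen was opened and the liver handled but none was removed, a group with 70% of the liver removed and a group with 80% removed. Frozen liver was taken 6 hours after surgery, and total RNA was hybridised to Illumina bead arrays. There were 4 arrays in each of the 6 groups, labelled as replicates, and p-values measure the spread between them. In bulk liver RNA, fewer cells of a type and less RNA per cell cannot be told apart.

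Fatty acids are bound, activated to acyl-CoA and carried into mitochondria on carnitine, where acyl-CoA dehydrogenases, hydratases, hydroxyacyl-CoA dehydrogenases and thiolases shorten them. Very long and branched chains are first shortened in peroxisomes, and cytochromes of the CYP4A family oxidise the far end of the chain. PPARA, paired with RXRA, is the receptor that senses fatty acids in liver and drives many of these genes in fasting. It binds direct repeats of the hexamer AGGTCA with a single base between them.

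Levels are normalized log2 intensities, and a difference is between group means on that scale. The probe detection floor lay at log2 4.73 to 4.92 by array, and the top of the scale at 15.42. Detected probes ranged from 15316 to 17463 per array, and arrays of 1 group correlated with each other at 0.977 or more over the tested genes. All 12 hepatocyte markers were detected in every group. One lean sham array, replicate 4, stood apart in this module: it was the highest of its group for 23 of the 30 members. Cyp4a14, an omega-hydroxylase and textbook PPARA target, read 4.66, 4.37, 5.25 and 10.70 on the lean sham arrays, so that replicate 4 sat at the level of operated livers. The counts against lean sham, and values of the members that moved most, are therefore also given without this array. Without it, 11 members were called higher and 7 lower after lean 70% hepatectomy, 16 and 0 after lean 80%, and 20 and 0 in obese against lean sham liver, and the interaction was called lower for 11 members at 70% and 17 at 80%. Other arrays were uneven too: lean 70% replicate 2 was the lowest of its group for 20 members and replicate 4 the highest for 20, lean 80% replicate 4 was the lowest for 19, and obese 70% replicate 4 was the lowest for 20.

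The 24 arrays lay on 4 slides. The first held the 4 lean sham arrays and obese sham replicates 1 and 2, and the second obese sham replicates 3 and 4 and the 4 lean 70% arrays. The third held the 4 obese 70% arrays and lean 80% replicates 1 and 2, and the fourth lean 80% replicates 3 and 4 and the 4 obese 80% arrays. No group linked the first pair of slides with the second pair. For lean 80% against lean sham, both obese hepatectomies against obese sham, obese against lean at 70%, lean 80% against lean 70% and both interactions, slide and group cannot be told apart. Neutrophil markers moved with surgery. Of 6 tested, 5 were called higher after lean 70%, lean 80% and obese 70% hepatectomy and 6 after obese 80%, and none between the sham groups. Their summed level was 7.24 to 7.99 on sham arrays and 10.05 to 12.41 on hepatectomy arrays. Of 10 Kupffer cell and macrophage markers, 4 were called higher after lean 70%, 2 lower after each of lean 80% and obese 70%, and 1 in each direction after obese 80%. Of the 7 endothelial markers, 3 or 4 were called higher and 1 to 3 lower after each hepatectomy, and of the 6 stellate cell markers 4 or 5 were higher in lean and 2 in obese mice. Hepatocyte markers summed to 17.57 to 17.83 on all arrays. Of these 12, 3 were called higher and 4 lower after lean 70%, 3 and 1 after lean 80%, 1 and 1 after obese 70%, 2 and 3 after obese 80%, 2 and 0 in obese against lean sham liver, 4 and 2 at 70%, and 2 and 2 at 80%. Of 6 listed adipocyte markers only Lep was tested, and Adipoq, Plin1, Fabp4 and Retn did not pass the detection filter. Lep was not detected in either sham group or in lean 70% liver, but was in the other groups. It was called higher after lean 80% hepatectomy (0.45), near the detection floor, and was not called after the other resections. The part of cell composition in the results below was not tested.

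The members that moved most include 4 acyl-CoA thioesterase genes that are neighbours on chromosome 12. Their order is Acot2, Acot1, Acot4 and Acot3, within 64.3 kb from the first to the last window. They are shown first because they lie side by side and yet followed different patterns, as their values below show. These are the 250 bases before the start that the RefSeq promoter table uses for each gene (GRCm38.p6, all on the plus strand), with this hexamer or its reverse complement TGACCT in capitals.
Acot2 chr12:83987611-83987860: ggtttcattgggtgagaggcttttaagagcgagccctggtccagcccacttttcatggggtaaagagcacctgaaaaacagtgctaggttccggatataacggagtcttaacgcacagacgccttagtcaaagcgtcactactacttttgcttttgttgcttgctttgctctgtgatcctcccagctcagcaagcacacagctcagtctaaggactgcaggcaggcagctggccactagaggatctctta
Acot1 chr12:84009252-84009501: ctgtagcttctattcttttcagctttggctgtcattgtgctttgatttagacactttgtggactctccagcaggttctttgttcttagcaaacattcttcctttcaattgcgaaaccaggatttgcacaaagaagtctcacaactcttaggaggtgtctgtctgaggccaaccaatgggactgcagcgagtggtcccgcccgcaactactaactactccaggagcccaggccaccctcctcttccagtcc
Acot4 chr12:84038129-84038378: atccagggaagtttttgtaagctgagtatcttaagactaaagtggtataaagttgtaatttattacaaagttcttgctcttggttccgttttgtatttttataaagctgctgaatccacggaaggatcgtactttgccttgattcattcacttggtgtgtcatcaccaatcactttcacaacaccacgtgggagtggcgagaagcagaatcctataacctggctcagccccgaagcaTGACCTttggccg
Acot3 chr12:84051894-84052143: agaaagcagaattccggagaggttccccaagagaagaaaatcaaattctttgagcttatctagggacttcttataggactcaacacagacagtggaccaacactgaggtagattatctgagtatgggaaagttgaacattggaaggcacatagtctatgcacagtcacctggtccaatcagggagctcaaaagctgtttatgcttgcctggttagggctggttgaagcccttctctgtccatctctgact
The search window also took in the first 50 bases after the start. On both strands, AGGTCA followed by any base and a second AGGTCA was found in 13 of 32851 such mouse windows (0.0396%), and in no window of the 29 members that have one. The same repeat spelled with AGGNCA, where N is any base, was in 125 windows (0.381%), Fabp1 the only member among them. The single hexamer, which the first of these repeats contains, was in 16.3% of all windows and in 8 of the 29 members: Acadm, Acadvl, Acot3, Acot4, Acot12, Cd36, Cpt1a and Fabp1. The Acot4 gene record begins at 84037254, upstream of the printed window, so that window precedes a start inside the gene's span. In Acot4 the hexamer began 13 bases before the start, and in Acot3 19 bases after it, outside the stretch printed. A missing match says only that these letters are not in this window.

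Obese liver carried more of this module before any resection. After sham surgery, 21 of the 30 tested members were called higher in obese than in lean mice and none lower, against 6.1% of all tested genes higher and 6.09% lower. At an unadjusted p under 0.05, 25 were higher and 0 lower, a limit at which the share of all genes was not counted. The median member difference was 0.63, and the median over all genes was -0.01. Beyond Cyp4a14, the largest differences were those of Acot3 (3.51), Acot1 (2.25), Acot4 (1.73) and Hadh (1.32). In limma all 21 calls had an adjusted p of at most 0.047. They include Cd36, which passed the filter through the obese groups alone. Lean and obese sham arrays shared the first slide: on it alone, 17 members were called higher, and all 30 differences were positive.

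In lean mice hepatectomy raised more members than it lowered. After 70% hepatectomy 11 members were called higher and 7 lower, where 21.4% of all genes were higher and 26.2% lower (47.6% called). After 80% hepatectomy 15 were higher and 3 lower, where 23.9% of all genes were higher and 31% lower (55% called). The median member difference was 0.14 after 70% and 0.30 after 80%, against -0.03 and -0.06 over all genes. With slide as a fixed term, 5 members were called after 70% hepatectomy: Cyp4a14, Acot2 and Eci2 higher and Acaa2 lower, as before, and Hadh lower, which was not called without the slide term. The 3 lower calls after 80% hepatectomy, Etfb, Acaa1a and Bdh1, were each lost without lean sham replicate 4 (adjusted p = 0.061, 0.068 and 0.13 in limma) and none remained lower with slide as a random block.

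In obese mice the direction was mostly downward. After 70% hepatectomy 12 members were called lower and 1 higher, where 24.6% of all genes were lower and 22.2% higher (46.8% called). After 80% hepatectomy 17 were lower and 1 higher, where 28.7% of all genes were lower and 24.1% higher (52.8% called). The median member difference was -0.25 and -0.46, against -0.02 and -0.04 over all genes. The single member called higher was Acot2 at both resections. Its call at 70% was lost without background correction, with a larger offset, with no filter and with slide as a random block.

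The responses of lean and obese livers were then compared directly, by the interaction of diet with surgery. At 70% hepatectomy 12 members had a lower response in obese than in lean mice and none a higher one, with 8.31% and 9.82% of all genes in these directions. At 80% hepatectomy the count was 16 lower and 0 higher, with 4.52% and 6.51% of all genes. The median member interaction was -0.40 and -0.76, against 0.04 and 0.03 over all genes. Rising in lean and falling in obese liver were 5 members at 70%, Crat, Ehhadh, Acot1, Acot3 and Acot12, and 7 members at 80%, Cpt2, Decr1, Etfdh, Pex11a, Acot1, Acot3 and Acot12. All of these had a called interaction, which is the difference between these opposite changes and so is not separate evidence. For Etfdh the obese fall was called by its brightest probe alone. With slide as a random block the interaction was called for 7 members at 70% and 15 at 80%.

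**Figure D1:**
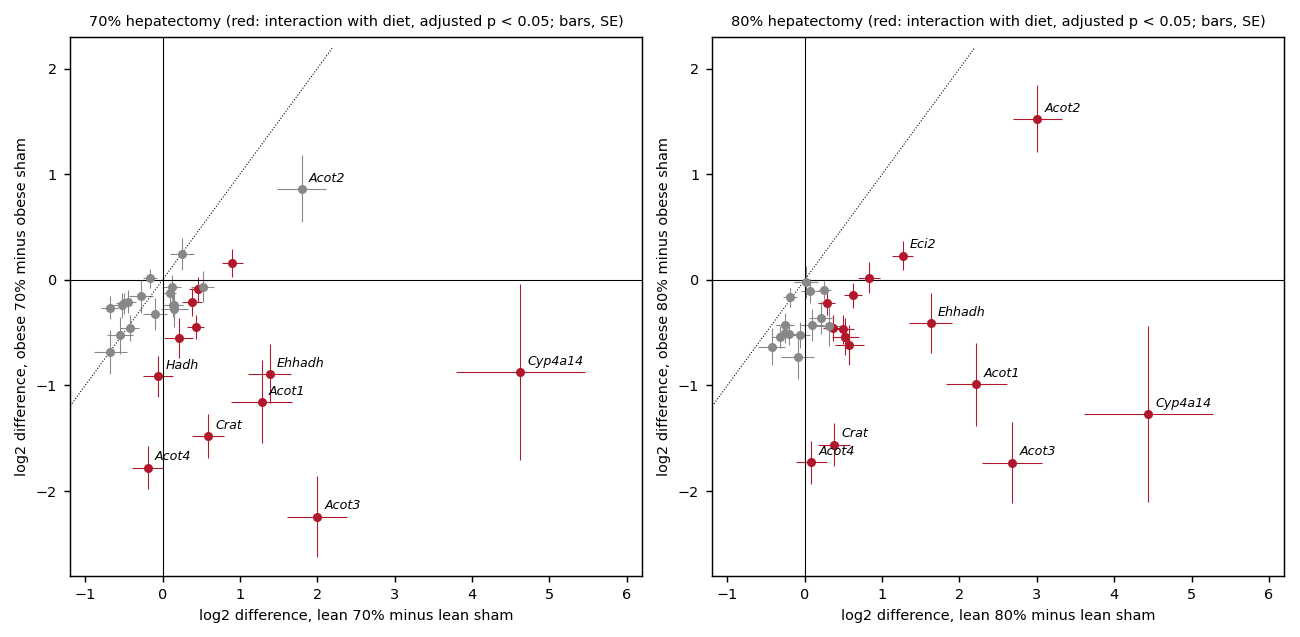
Differences from sham in lean mice (x axis, log2) against those in obese mice (y axis, log2) for 30 members after 70% (left) and 80% (right) hepatectomy; points are differences of means of 4 arrays, bars are SE, red points have an interaction called at adjusted p under 0.05, and the dotted line marks equal responses. Most points lie below the dotted line, and Acot1, Acot3 and Cyp4a14 lie far to its right, with lean differences of 2.21, 2.68 and 4.44 at 80%.

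After resection the median gap between the diets was smaller, and the calls were mixed in sign. At 70% hepatectomy 12 members were called higher and 5 lower in obese than in lean liver, where 16.9% and 13.7% of all genes were. At 80% hepatectomy 6 were higher and 7 lower, where 13.5% and 9.46% of all genes were. Higher in obese liver at 70% were, first by size, Acaa1b (1.08), Bdh1 (0.97), Eci1 (0.87), Acadm (0.78) and Acaa2 (0.73), and lower were Ehhadh (-1.11), Crat (-0.82), Acot12 (-0.55) and Hadha (-0.39), with Crot, not detected in obese 70% liver, at least 1.07-fold lower. Of the 10 Kupffer cell and macrophage markers, 8 were also lower there, with a list median of -0.80, and their part in the result was not tested. At 80% the higher members were Bdh1 (0.74), Hadh (0.57), Acadm (0.48), Eci1 (0.43) and Acads (0.28), with Cd36 near the detection floor. The lower ones were led by Acot2 (-0.96), Ehhadh (-0.87), Acot12 (-0.73), Decr1 (-0.70) and Crat (-0.69). Where called members had several probes, another probe was called the same way for 5 of 8 at 70% and 0 of 5 at 80%. A second Crat probe differed by 0.02 at 70%, against -0.82 for the brightest. The median size of the difference was 0.63 after sham surgery, 0.48 at 70% and 0.41 at 80%, and over all genes 0.15, 0.23 and 0.19. The count at 80% fell from 13 to 8 without lean 80% replicate 3 or obese 80% replicate 2 and to 6 without obese 80% replicate 4, and with scaling to the 75th percentile it was 2 higher and 10 lower. Within the fourth slide, which held both 80% groups, 4 members were higher and 3 lower.

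**Figure D2:**
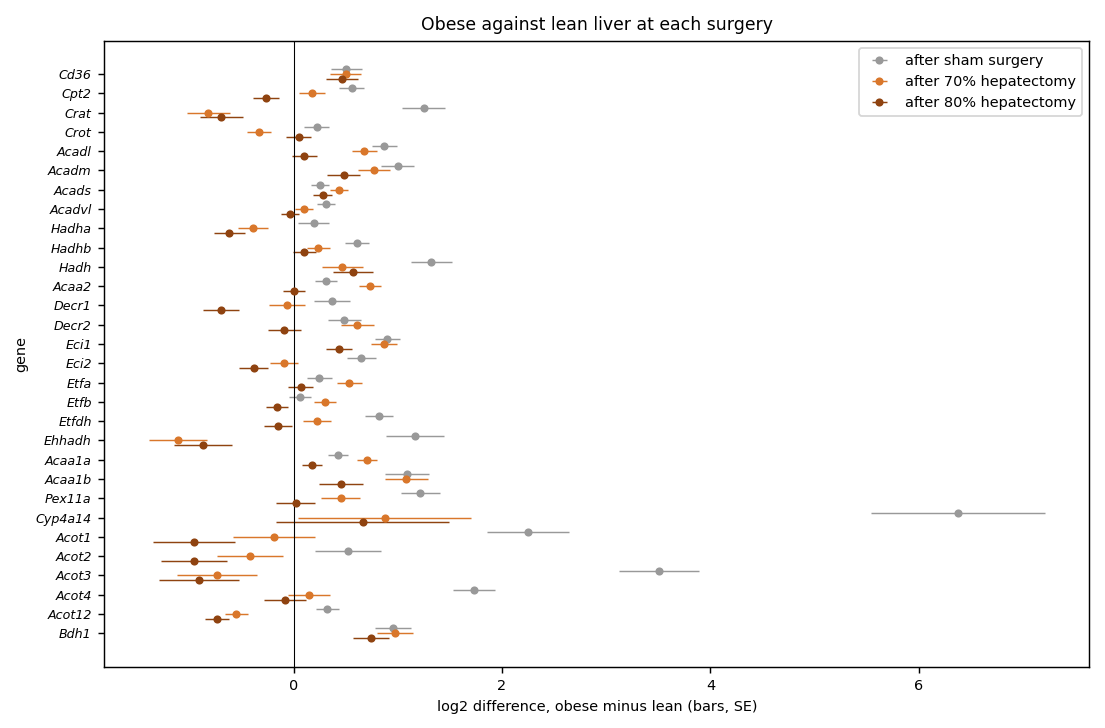
Difference between obese and lean liver (log2, x axis) for each of 30 members after sham surgery (grey), 70% hepatectomy (orange) and 80% hepatectomy (brown); points are differences of means of 4 arrays and bars are SE. All 30 grey points are above 0, while Crat, Ehhadh and Acot12 move below 0 after both resections.

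Fewer members differed between the 2 sizes of resection. In lean mice 5 members were called higher and 1 lower after 80% than after 70% hepatectomy, where 7.02% of all genes were higher and 9.6% lower. Higher were Acot2, Acadl, Decr2, Acaa2 and Eci1, with differences from 0.37 to 1.21, and lower was Crot, not detected in lean 80% liver. Crot passed the filter only through lean 70% liver, so its call is not taken as support. All 10 Kupffer cell and macrophage markers were lower as well, with a list median of -0.80, and their part in the result was not tested. These counts were unstable: 14 calls without lean 70% replicate 4, 3 without lean 70% replicate 2 or 3 or lean 80% replicate 1, and none when only these 8 arrays were fitted. In obese mice none of the 30 passed in limma, where 4.31% of all genes were higher and 3.55% lower. At an unadjusted p under 0.05, 2 were higher and 3 lower, and the share of all genes at this limit was not counted. Other settings called 0 to 3, and member differences ran from -0.40 to 0.66.

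**Figure D3:**
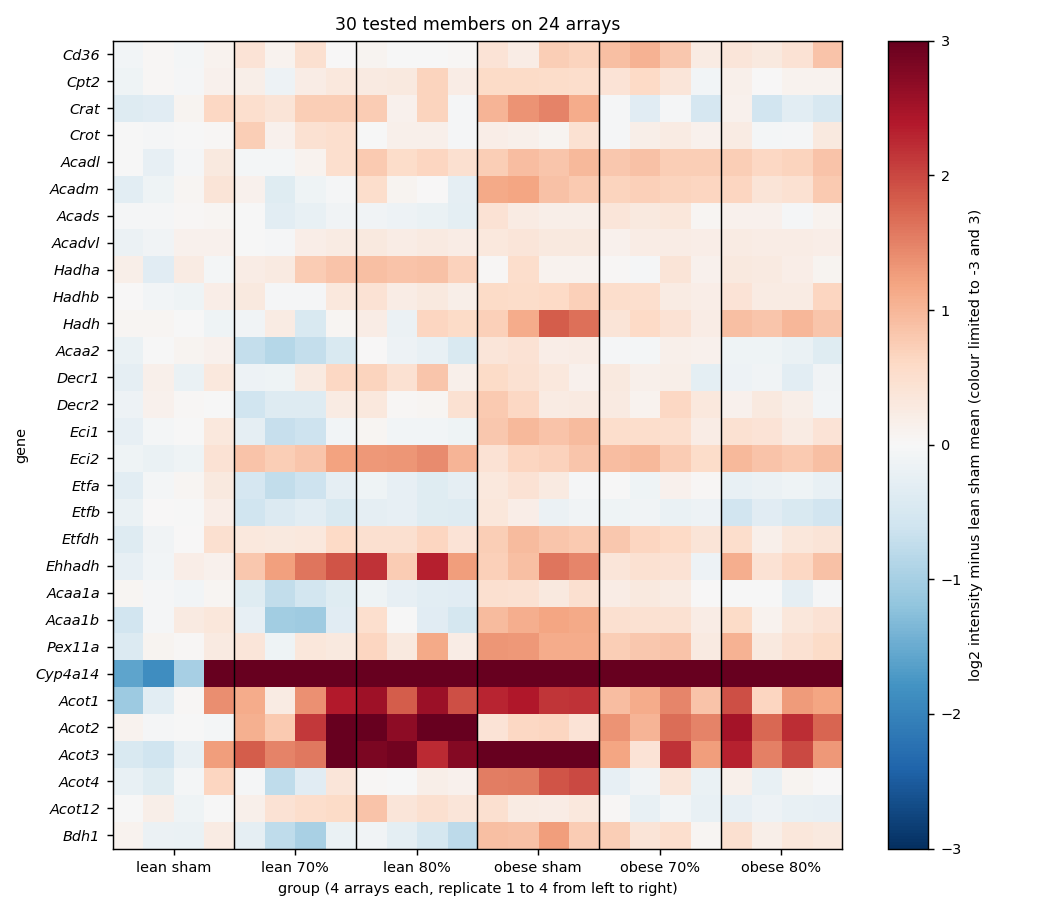
Level of each tested member on each array (colour, log2 intensity minus the mean of the lean sham arrays, limited to -3 and 3), with genes as rows and 24 arrays as columns in 6 groups of 4. The obese sham columns are warm for nearly all genes, and the fourth lean sham column, replicate 4, is warmer than the others for Cyp4a14, Acot1, Acot3, Acot4 and Crat.

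Cyp4a14 had the widest range. Its lean sham values are given above, and it was detected there on replicates 3 and 4 only, so differences from lean sham depend on background and no exact fold is given. It read 11.07, 10.38, 11.09 and 10.93 on lean 70% arrays and 10.84, 10.40, 11.45 and 10.04 on lean 80% arrays. On obese arrays it read 12.34, 13.00, 12.58 and 12.55 after sham surgery, 11.49, 12.22, 12.40 and 10.86 after 70% and 11.36, 10.09, 11.68 and 12.24 after 80% hepatectomy. Apart from replicate 4, lean sham lay far below every other array, while obese sham exceeded both lean resection groups. In limma it rose in lean liver by log2 4.62 after 70% (SE 0.83, adjusted p = 6.5e-05) and 4.44 after 80% hepatectomy (adjusted p = 8.5e-05). Without lean sham replicate 4 these values were 6.11 and 5.92. After sham surgery obese exceeded lean by 6.37 (adjusted p = 1.3e-05), and by 7.86 without that array. In obese liver the differences after resection, -0.88 and -1.27, did not pass (adjusted p = 0.41 and 0.21). The interaction was -5.50 at 70% and -5.71 at 80%, and -6.98 and -7.20 without lean sham replicate 4. Without lean sham replicate 2, the lowest array, the lean rises were 4.00 and 3.81, the sham difference 5.75 and the interactions -4.88 and -5.09.

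Acyl-CoA thioesterases release free fatty acid from CoA. ACOT1 acts in the cytosol, ACOT2 in mitochondria, ACOT3 and ACOT4 in peroxisomes, and ACOT12 cleaves acetyl-CoA in the cytosol. Acot1 read 8.66, 9.44, 9.79 and 11.14 in lean sham, 10.88, 10.01, 11.13 and 12.15 in lean 70% and 12.29, 11.58, 12.34 and 11.69 in lean 80% liver. In obese sham liver it read 12.04, 12.16, 11.90 and 11.93, in obese 70% liver 10.69, 10.87, 11.23 and 10.62 and in obese 80% liver 11.69, 10.40, 11.04 and 10.95. Obese sham exceeded all lean sham arrays, and in obese liver all 8 hepatectomy arrays were below all sham arrays. In lean liver Acot1 rose 2.43-fold (log2 1.28, SE 0.39, adjusted p = 0.0093) after 70% and 4.64-fold (log2 2.21, SE 0.39, adjusted p = 4.5e-05) after 80% hepatectomy. In obese liver it fell 2.23-fold (log2 -1.16, SE 0.39, adjusted p = 0.019) and 1.99-fold (log2 -0.99, SE 0.39, adjusted p = 0.038), by limma. After sham surgery obese exceeded lean by 4.76-fold (log2 2.25, SE 0.39, adjusted p = 0.00037). Without lean sham replicate 4 the lean rises were log2 1.74 and 2.68. A second Acot1 probe was called in the same direction in all of these comparisons.

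In lean mice the Acot3 levels were 5.64, 5.49, 5.87 and 7.35 after sham surgery, 7.91, 7.58, 7.67 and 9.18 after 70% and 8.91, 8.99, 8.33 and 8.84 after 80% resection. The obese levels were 9.13, 9.32, 9.94 and 9.98 after sham surgery, 7.28, 6.50, 8.26 and 7.35 after 70% and 8.40, 7.59, 8.06 and 7.38 after 80% resection. The lean groups rose from sham to resection with no overlap, replicate 4 of sham being the nearest, and the obese groups fell with no overlap. The lean rise was 4-fold (log2 2.00, SE 0.39, adjusted p = 0.00015) and 6.43-fold (log2 2.68, SE 0.39, adjusted p = 2.9e-06), and the obese fall 4.73-fold (log2 -2.24, SE 0.39, adjusted p = 4.6e-05) and 3.32-fold (log2 -1.73, SE 0.39, adjusted p = 0.00059). With obese sham 11.4-fold above lean sham (limma adjusted p = 1.4e-06), this gave an interaction of -4.24 at 70% and -4.41 at 80%. Without lean sham replicate 4 the lean rises were log2 2.42 and 3.11, obese sham was 3.93 above lean sham, and the interactions were -4.66 and -4.84.

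On the lean arrays Acot4 read 7.68, 7.53, 7.84 and 8.56 after sham surgery, 7.87, 7.15, 7.57 and 8.26 after 70% hepatectomy and 7.94, 7.89, 8.09 and 8.03 after 80%. On the obese arrays it read 9.43, 9.45, 9.79 and 9.88 after sham surgery, 7.66, 7.79, 8.26 and 7.71 after 70% hepatectomy and 8.05, 7.69, 7.98 and 7.90 after 80%. The obese sham arrays stood above all others, and the remaining 5 groups overlapped. Acot4 fell in obese liver by 3.43-fold (log2 -1.78, SE 0.20, adjusted p = 1.6e-07) and 3.32-fold (log2 -1.73, SE 0.20, adjusted p = 1.6e-07) in limma. In lean liver it differed by -0.19 and 0.08, neither of which passed (adjusted p = 0.46 and 0.75).

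Acot2 read 4.49, 4.35, 4.39 and 4.34 in lean sham, 5.46, 5.18, 6.51 and 7.61 in lean 70% and 7.53, 7.07, 7.60 and 7.39 in lean 80% liver. In obese sham liver it read 4.79, 5.01, 5.04 and 4.81, in obese 70% liver 5.74, 5.42, 6.07 and 5.87 and in obese 80% liver 6.90, 6.11, 6.62 and 6.13. No lean sham array detected Acot2, so its rise in lean liver was at least 2.51-fold after 70% and at least 5.79-fold after 80% hepatectomy (limma adjusted p = 5.1e-05 and 2.8e-08), against the detection floor. In obese liver it rose 1.82-fold (log2 0.86, SE 0.32, adjusted p = 0.029) and 2.88-fold (log2 1.52, SE 0.32, adjusted p = 0.00029), with 3 of the 4 obese sham arrays detected. All hepatectomy arrays of both diets were above all sham arrays. A second, dimmer Acot2 probe was called higher after lean 80% hepatectomy, by 0.39, and did not pass in the other 3 comparisons, where it differed by 0.04 to 0.37. Of the 4 neighbours, Acot2 was called higher after resection in both diets, Acot1 and Acot3 rose in lean and fell in obese liver, and Acot4 fell in obese liver. Acot12 also rose in lean and fell in obese liver, 0.43 and 0.52 against -0.45 and -0.54. Near-identical paralogs such as Acot1 and Acot2 may share a probe's signal, which was not tested.

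**Figure D4:**
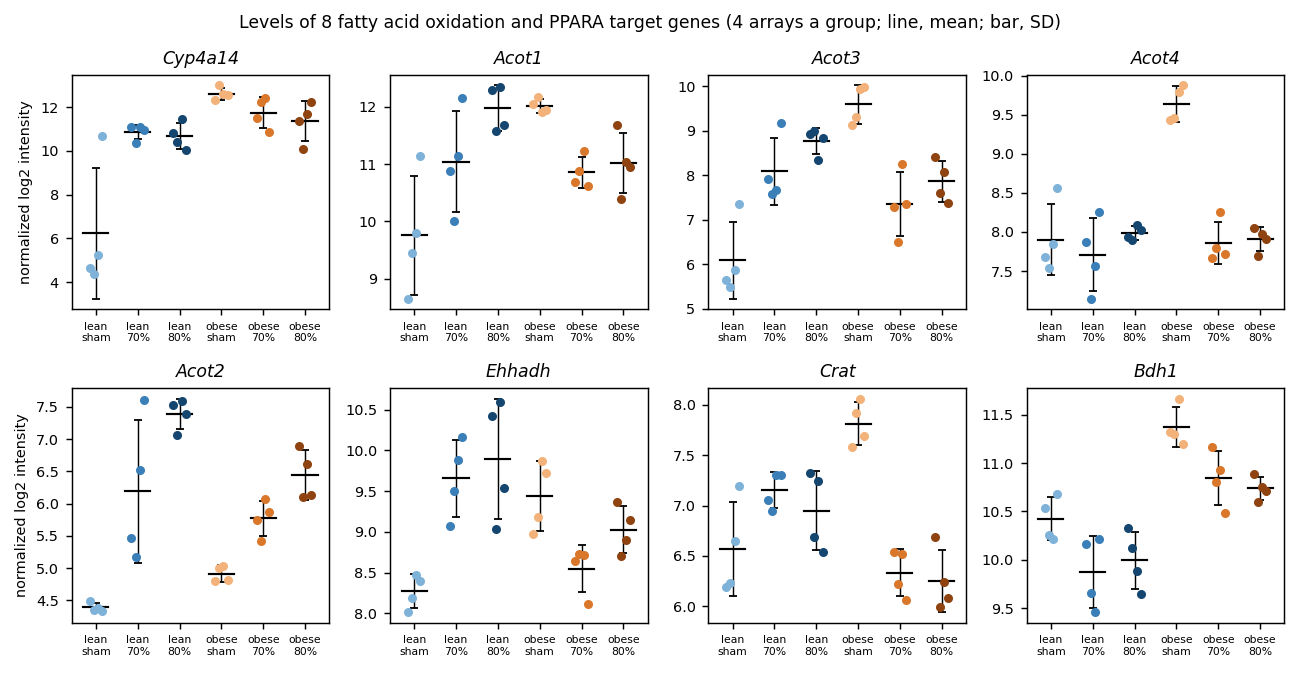
Normalized log2 intensity (y axis) of 8 members on every array in 6 groups of 4; points are arrays, lines are means and bars are SD. Acot1, Acot3 and Ehhadh rise from lean sham to lean hepatectomy and fall from obese sham to obese 70% hepatectomy, whereas Acot2 rises in both diets.

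The peroxisomal enzyme genes Ehhadh, Acaa1a and Acaa1b, and Pex11a, whose protein acts in peroxisome division, were all higher in obese sham liver: 4 of 4 were called. Crot, also peroxisomal and near the detection floor, was not called there (0.22, limma adjusted p = 0.25). EHHADH joins hydratase and dehydrogenase steps in a single peroxisomal protein. In lean mice the Ehhadh levels were 8.02, 8.19, 8.47 and 8.40 after sham surgery, 9.08, 9.50, 9.88 and 10.17 after 70% and 10.43, 9.03, 10.60 and 9.53 after 80% resection. The obese levels were 8.98, 9.18, 9.87 and 9.73 after sham surgery, 8.64, 8.73, 8.71 and 8.12 after 70% and 9.37, 8.70, 8.90 and 9.15 after 80% resection. Every lean hepatectomy array exceeded every lean sham array, and every obese 70% array was below every obese sham array. Ehhadh rose in lean liver by 2.61-fold (log2 1.39, SE 0.28, adjusted p = 0.00024) and 3.09-fold (log2 1.63, SE 0.28, adjusted p = 3e-05) in limma. In obese liver it fell 1.85-fold (log2 -0.89, SE 0.28, adjusted p = 0.011) at 70%, whereas at 80% it differed by -0.41, which did not pass (adjusted p = 0.23). Both obese sham arrays of the second slide, replicates 3 and 4, read higher than those of the first slide.

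ACAA1A and ACAA1B are the peroxisomal thiolases. Acaa1b read 13.33, 13.85, 14.16 and 14.23 on lean sham and 14.84, 14.98, 15.07 and 15.04 on obese sham arrays, the latter near the top of the scale. The groups did not overlap, and obese exceeded lean by 2.13-fold (log2 1.09, SE 0.21, adjusted p = 0.001). Acaa1b fell in lean liver after 70% (-0.67) and in obese liver after both resections (-0.68 and -0.73). Acaa1a fell after lean 70% (-0.50), lean 80% (-0.26) and obese 80% hepatectomy (-0.51). Pex11a means were 10.87 ± 0.29, 11.08 ± 0.23 and 11.44 ± 0.42 (SD, n = 4) in lean sham, 70% and 80% liver. In obese liver they were 12.08 ± 0.11, 11.53 ± 0.27 and 11.46 ± 0.32. Pex11a rose in lean liver at 80% (0.58) and fell in obese liver at both resections.

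Carnitine carriers split. Carnitine acetyltransferase, Crat, moves short acyl groups between CoA and carnitine. On the lean arrays Crat read 6.19, 6.23, 6.65 and 7.19 after sham surgery, 7.06, 6.94, 7.30 and 7.31 after 70% hepatectomy and 7.32, 6.68, 7.24 and 6.54 after 80%. On the obese arrays it read 7.58, 7.92, 8.06 and 7.69 after sham surgery, 6.54, 6.22, 6.52 and 6.06 after 70% hepatectomy and 6.69, 6.00, 6.24 and 6.08 after 80%. In obese liver all hepatectomy arrays were below all sham arrays, a fall of 2.79-fold (log2 -1.48, SE 0.21, adjusted p = 2.8e-06) and 2.95-fold (log2 -1.56, SE 0.21, adjusted p = 9.1e-07) in limma. In lean liver Crat rose 1.5-fold (log2 0.59, SE 0.21, adjusted p = 0.021) at 70%, and differed by 0.38 at 80% (adjusted p = 0.12), while without lean sham replicate 4 the difference was 0.59 and passed (adjusted p = 0.014). Cpt2, the inner carnitine palmitoyltransferase of mitochondria, rose in lean liver at 80% (0.36) and fell in obese liver at 80% (-0.46). Crot, the peroxisomal carnitine octanoyltransferase, was near the floor: it was called higher in lean 70% liver, where 3 arrays detected it and no lean sham array did, a rise of at least 1.03-fold. Only 5 arrays detected Crot in all, so it passed the filter only through lean 70% liver. Its calls in comparisons and interactions that use this group are counted, and are not taken as support. The fatty acid receptor Cd36 was detected on 7 obese arrays and no lean array. It passed the filter through the obese groups alone. With lean at the detection floor, obese was at least 1.16-fold higher after 70% and at least 1.01-fold after 80% hepatectomy. No fold is given after sham surgery, where the obese mean did not exceed the floor. Cd36 is counted among the members called higher in obese liver at each surgery, and these calls are not taken as support. Its levels were at most 5.39.

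The 4 mitochondrial acyl-CoA dehydrogenases take the first step on long (Acadl), medium (Acadm), short (Acads) and very long chains (Acadvl). After sham surgery 3 were called higher in obese liver. Acadm read 12.25, 12.43, 12.62 and 12.96 in lean sham, 12.69, 12.21, 12.42 and 12.54 in lean 70% and 13.10, 12.64, 12.59 and 12.29 in lean 80% liver. In obese sham liver it read 13.71, 13.74, 13.45 and 13.35, in obese 70% liver 13.23, 13.29, 13.23 and 13.21 and in obese 80% liver 13.21, 12.96, 13.02 and 13.35. Every obese sham array exceeded every lean array of all 3 groups for Acadm. The sham difference was 2-fold (log2 1.00, SE 0.15, adjusted p = 9.9e-05), and within the first slide it was log2 1.16. In lean liver neither resection gave a called difference for Acadm (-0.10 and 0.09). Acadl rose in lean liver at 80% (0.62) and differed by -0.07 and -0.15 in obese liver, which did not pass. By its brightest probe, Acads was not called against sham after any resection, while a second probe was called lower after lean 70% (-0.56), lean 80% (-0.34) and obese 80% (-0.60). By the brightest probe it was higher in obese than lean liver at 70% (0.44) and 80% (0.28). Acadvl was higher in obese sham liver (0.31) and rose in lean liver at 80% (0.25).

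HADHA and HADHB are the subunits of the mitochondrial trifunctional protein, and their genes lie head to head on chromosome 5: the search windows of Hadha and Hadhb overlap by 228 bases. The shared start region is shown as the 250 bases before the start of Hadhb, plus strand, in which the hexamer is absent.
Hadhb chr5:30155003-30155252: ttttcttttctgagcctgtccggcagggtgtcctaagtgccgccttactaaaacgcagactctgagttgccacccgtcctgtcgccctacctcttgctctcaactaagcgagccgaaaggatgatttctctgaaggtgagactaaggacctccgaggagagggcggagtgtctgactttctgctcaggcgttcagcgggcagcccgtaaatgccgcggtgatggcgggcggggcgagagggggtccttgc
Hadha read 5.91, 5.39, 5.98 and 5.67 on lean sham, 5.95, 6.00, 6.49 and 6.58 on lean 70% and 6.65, 6.60, 6.61 and 6.42 on lean 80% arrays. The 80% arrays were all above the sham arrays, and Hadha rose 1.43-fold (log2 0.52, SE 0.15, adjusted p = 0.0056) and 1.78-fold (log2 0.83, SE 0.15, adjusted p = 4.4e-05) in limma. Hadhb rose at 80% alone by 0.28. In obese liver neither passed after resection: Hadha differed by -0.07 and 0.02, and Hadhb by -0.24 and -0.22. After sham surgery Hadhb was 1.52-fold higher in obese liver, while Hadha differed by 0.19 (adjusted p = 0.46).

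HADH oxidises short hydroxyacyl chains. Hadh read 6.24, 6.25, 6.18 and 6.05 on lean sham and 6.90, 7.28, 8.0 and 7.82 on obese sham arrays. The 2 obese arrays on the first slide were the lower 2, and the sham difference was 1.32 over all arrays and 0.91 within that slide. Hadh fell in obese liver at 70% by 1.88-fold (log2 -0.91, SE 0.19, adjusted p = 0.00044) in limma. A second Hadh probe differed there by -0.23, which did not pass, and its 70% interaction was 0.08, against -0.85 for the brightest probe. In lean liver at 70% Hadh differed by -0.06, and by -0.88 with slide as a fixed term. The mitochondrial thiolase Acaa2 fell in lean liver at 70% by 1.61-fold (log2 -0.69, SE 0.11, adjusted p = 1.2e-05), with no overlap, and in obese liver at 70% (-0.26) and 80% (-0.51).

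Auxiliary enzymes reshape unsaturated chains so that the cycle can go on. Eci2, an enoyl-CoA isomerase, read 10.52, 10.46, 10.52 and 11.08 on lean sham, 11.49, 11.37, 11.47 and 11.84 on lean 70% and 11.94, 11.96, 12.07 and 11.67 on lean 80% arrays. Both lean resection groups lay above lean sham with no overlap, and the sham array nearest to them was replicate 4. Eci2 rose 1.86-fold (log2 0.90, SE 0.14, adjusted p = 7.3e-06) and 2.4-fold (log2 1.26, SE 0.14, adjusted p = 3.8e-08) in lean liver, the lowest adjusted p of a member after 70%. In obese liver it differed by 0.16 and 0.23, which did not pass. The mitochondrial isomerase Eci1 went the other way: it fell in lean liver at 70% (-0.42) and in obese liver at 70% (-0.46) and 80% (-0.52). The dienoyl-CoA reductase Decr1 rose in lean liver at 80% (0.52) and fell in obese liver at 80% (-0.54). Decr2, its peroxisomal counterpart, did not pass after any resection by its brightest probe, while a second probe was called lower after obese 80% hepatectomy (-0.47).

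Electrons from the acyl-CoA dehydrogenases pass through the flavoprotein of Etfa and Etfb to its dehydrogenase, Etfdh. Etfdh rose in lean liver after 70% (0.38) and 80% (0.50) and, by its brightest probe, fell in obese liver at 80% (-0.47). Its other probes were called higher after both lean resections. None of them was called after obese 80% hepatectomy, where they differed by -0.28 to 0.18. By their brightest probes, Etfa and Etfb instead fell in lean liver at 70% (-0.53 and -0.45) and in obese liver at 80% (-0.43 and -0.54). Other probes were not called after lean 70%, where they differed by -0.19 and -0.12 for Etfa and -0.10 for Etfb. After obese 80% hepatectomy another probe of each gene was called lower. Etfdh was 1.76-fold higher in obese than in lean sham liver, whereas Etfa and Etfb differed by 0.25 and 0.06 there, which did not pass.

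Bdh1 interconverts acetoacetate and 3-hydroxybutyrate in mitochondria. In lean mice the Bdh1 levels were 10.54, 10.25, 10.22 and 10.68 after sham surgery, 10.16, 9.65, 9.46 and 10.22 after 70% and 10.33, 10.12, 9.89 and 9.65 after 80% resection. The obese levels were 11.32, 11.30, 11.67 and 11.20 after sham surgery, 11.17, 10.80, 10.93 and 10.48 after 70% and 10.89, 10.59, 10.75 and 10.71 after 80% resection. Every obese array exceeded every lean array at the same surgery. Obese liver was higher by 1.93-fold (log2 0.95, SE 0.17, adjusted p = 0.0006) after sham surgery, 1.97-fold (log2 0.97, SE 0.17, adjusted p = 0.0002) at 70% and 1.67-fold (log2 0.74, SE 0.17, adjusted p = 0.0037) at 80% in limma. A second Bdh1 probe was also called higher after sham surgery (0.85) and at 70% (0.74), but not at 80% (0.42). Bdh1 was called lower after all 4 resections, by -0.55 and -0.43 in lean and -0.53 and -0.63 in obese liver, and its interactions, 0.02 and -0.21, did not pass. The lean 80% call is among those lost without lean sham replicate 4.

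Some calls ended when a single array was left out. After lean 70% hepatectomy 5 of 18 calls, Crat, Etfdh, Acaa1b, Acot1 and Bdh1, were each lost without at least 1 of lean sham replicates 1 and 2 and lean 70% replicates 3 and 4. After lean 80% this held for 8 of 18, Cpt2, Acadvl, Hadhb, Decr1, Etfb, Acaa1a, Pex11a and Bdh1, and for each of the 8 arrays but lean 80% replicate 2. After obese 70% it held for 4 of 13, Acaa2, Pex11a, Acot2 and Bdh1, and each of the 8 arrays. After obese 80% it held for 2 of 18, Acadm and Acot1, and each array but obese 80% replicate 1. Between the diets, Cd36, Acadvl and Decr2 were lost after sham surgery. At 70% Cd36, Crot, Hadha and Etfb were lost, and at 80% Cd36, Crat, Acadm, Acads, Hadh, Eci2, Ehhadh and Acot2, each without at least 1 of the 8 arrays compared, and each array ended at least 1 call. Interactions lost were Crot, Hadh, Etfdh and Pex11a at 70% and Hadhb and Acot2 at 80%. The limma adjusted p of these lost calls ran from 0.05 to 0.161.

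Other genes of the pathway were taken from lists of 119, of which 97 were tested. After sham surgery 33 were called higher and 10 lower in obese liver. In lean liver 19 were higher and 37 lower after 70%, and 20 higher and 36 lower after 80% hepatectomy. In obese liver 10 were higher and 44 lower, and 9 higher and 58 lower. The shares of all tested genes called lower, in the order lean 70%, lean 80%, obese 70% and obese 80%, were 26.2%, 31%, 24.6% and 28.7%, those called higher were 21.4%, 23.9%, 22.2% and 24.1%, and between the sham groups 6.1% were higher and 6.09% lower. The list of other mitochondrial oxidation genes had no higher call after any resection: 13, 13, 7 and 15 of 18 were lower after lean 70%, lean 80%, obese 70% and obese 80%. This list is broad. It also holds Acacb, Txn2, Nudt7 and Nudt19, which are not enzymes of the oxidation cycle, and Ivd, Gcdh and Acad8 of amino acid breakdown. Other peroxisomal genes were higher in obese sham liver for 12 of 24 and lower in none, and after resection 5 rose and 8 fell in lean 70%, 5 and 5 in lean 80%, 1 and 15 in obese 70% and 0 and 16 in obese 80% liver. Of 6 tested genes for making or using ketone bodies, 1 was called higher and 4 lower after each lean resection, and 1 and 3 after each obese one. The one that rose was Slc16a6, a transporter that exports ketone bodies in zebrafish liver (2.55, 3.13, 2.23 and 2.41). Of 14 other uptake and activation genes, 1 was higher and 5 lower after lean 70%, 0 and 8 after lean 80%, 2 and 6 after obese 70% and 1 and 8 after obese 80%.

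Neither receptor gene was called against sham after a resection. Ppara differed from sham by -0.37 and 0.00 in lean and 0.08 and 0.00 in obese liver, none of which passed, and by 0.10 between the sham groups. Rxra means were 7.19, 6.84 and 7.31 in lean sham, 70% and 80% liver and 6.69, 6.83 and 6.88 in obese liver. Rxra was lower in obese than lean sham liver (-0.50), a call lost without lean sham replicate 1 or 2 or obese sham replicate 1 or 3 (limma adjusted p from 0.065 to 0.087). It was also called higher in lean 80% than lean 70% liver (0.47) and lower in obese than lean liver at 80% (-0.43). Both of these calls were lost without some single arrays. The coactivator gene Ppargc1a rose 3.63-fold (log2 1.86, SE 0.26, adjusted p = 2.7e-06) and 4.47-fold (log2 2.16, SE 0.26, adjusted p = 2.3e-07) in lean liver in limma, and in obese liver differed by -0.11 and 0.27. Its interaction was called at both resections (-1.97 and -1.89). Ppargc1b, a related coactivator gene, was called lower in obese liver after both resections (-2.32 and -2.07), with an interaction of -2.02 at 70%. In lean liver it was called lower at 80% (-0.54), a call lost without some single arrays. Fgf21, a PPARA-driven hormone of fasting, read 5.37, 5.66, 6.72 and 7.72 on lean sham and 8.19, 8.33, 11.39 and 8.60 on lean 80% arrays. It rose 6.76-fold there (limma adjusted p = 0.00011), and 4.01-fold without lean 80% replicate 3 (adjusted p = 0.00024), the highest array. Its interaction there did not pass (adjusted p = 0.052).

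Among the other PPARA targets, 10 of 23 were higher and 5 lower after lean 70%, 11 and 4 after lean 80%, 6 and 9 after obese 70% and 6 and 13 after obese 80% hepatectomy. Pdk4, which restrains pyruvate oxidation, rose in all 4 comparisons, by log2 5.67 and 6.82 in lean and 3.96 and 5.19 in obese liver. Angptl4, an inhibitor of lipoprotein lipase, rose in all 4 as well, from 0.85 to 1.93. So did Hilpda, by 5.24 and 5.91 in lean and 3.55 and 4.70 in obese liver. Cidec, not detected in lean sham liver, was at least 28.1-fold higher after lean 70%, 59.5-fold after lean 80% and 14.5-fold in obese sham liver. Ces1d fell after lean 70% (-2.47). G0s2, an inhibitor of the lipase ATGL, crossed like Acot3, with 1.07 and 1.85 in lean and -4.49 and -3.48 in obese liver. Cyp4a31, a relative of Cyp4a14, was higher in obese sham liver by 3.09, rose in lean liver by 1.17 and 2.02, and fell in obese 80% liver by 1.37. Its lean 70% call was lost without lean sham replicate 1 or 3 or lean 70% replicate 4 (limma adjusted p from 0.051 to 0.09). Other relatives, Cyp4a12a and Cyp4a12b, went the other way and were called lower in obese sham liver (-1.64 and -2.59).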

How the data were processed

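Total liver RNA was measured on 24 arrays, 4 in each of 6 groups. The deposited intensities are bead averages, not normalized between arrays, per the file headers. Biotin-labelled cRNA was made with an amplification kit, per the labels' protocols; the sources used here do not name the scanner software. The deposited table's detection score is named a p-value per the file headers but rises from 0 to 1 with brightness, so the detection p was taken as 1 minus this value. The deposited series matrix holds log2 values by the authors, which quantile normalization without background correction, centred on each probe's median, matched to within 0.000847.

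Intensities were corrected with normexp (offset 16), quantile normalized and log2 transformed in limma 3.58.1 (R 4.3.3). Of 45281 probes, 34885 had 1 gene symbol, 18 several and 10378 none in the platform annotation. A probe passed with a detection p under 0.05 on at least 4 arrays, and 19631 passed. The brightest passing probe stood for a gene. One limma model with 6 group means and 18 residual degrees of freedom covered 10765 genes. Tests were two-sided, Benjamini-Hochberg adjusted over all genes and called at an adjusted p under 0.05. A fold is 2 to the power of the difference. Where a group detected a gene on no array, "at least" folds use the detection floor.

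The members and lists were chosen with earlier results of these data known. All members are named. Up to 5 called members in each direction of a comparison are given in detail, and of the related genes a preset few and some of the largest called changes. The fit was tested on simulated data with known answers, drawn with no slide effect and with 100 genes changed by each size. For lean 80% against sham it recovered 53% of changes of log2 0.5 and 92% of those of log2 1. Of 10565 unchanged genes, 6 were called. Same-numbered replicates did not deviate together (correlations from -0.21 to 0.18 over 15 pairs of groups), so numbers were not used as pairs. Alternatives were no background correction, an offset of 50, scaling to the 75th percentile, other detection filters, other rules for the probe of a gene, only the groups compared, slide as a block, replicate number as a block, and each array left out. Promoter windows came from RefSeq (GRCm38.p6) by gene symbol, for 29 of the 35 members. Depth has no counterpart on arrays, and the 4 arrays a group limit the precision.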

Additional observations from a re-analysis of the deposited data

Results flagged for a closer look

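In 12 of 180 combinations of a tested member and a group, 1 array lay far from the other 3, by Dixon's criterion for 4 values at its 95% level. Chance flags about 1 in 20 such groups. Obese 70% replicate 4 had Eci1 at 11.18 against 11.44 to 11.47, Ehhadh at 8.12 against 8.64 to 8.73 and Acaa1b at 14.13 against 14.35 to 14.37. Obese 80% replicate 3 had Decr1 at 8.08 against 8.24 to 8.27 and Acaa1a at 12.45 against 12.70 to 12.71. Lean sham replicate 4 had Eci2 at 11.08 against 10.46 to 10.52 and Cyp4a14 at 10.70 against 4.37 to 5.25. Lean 80% replicate 3 had Cpt2 at 12.62 against 12.19 to 12.26. Obese sham replicate 2 had Hadha at 6.26 against 5.78 to 5.85. Lean 70% replicate 4 had Etfdh at 10.53 against 10.20 to 10.24. Obese sham replicate 3 had Acaa1a at 13.01 against 13.18 to 13.20. Lean 70% replicate 2 had Pex11a at 10.73 against 11.15 to 11.23.

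The response to hepatectomy differed between obese and lean liver, by the limma interaction, for 12 members at 70% and 16 at 80%. All were lower in obese liver. At 70% the interactions on the log2 scale were those of Cyp4a14 (-5.50), Acot3 (-4.24), Acot1 (-2.44), Ehhadh (-2.27), Crat (-2.07), Acot4 (-1.58), Acot12 (-0.87), Hadh (-0.85), Pex11a (-0.76), Eci2 (-0.74), Etfdh (-0.59) and Crot (-0.55). At 80% they were those of Cyp4a14 (-5.71), Acot3 (-4.41), Acot1 (-3.21), Ehhadh (-2.04), Crat (-1.94), Acot4 (-1.81), Acot2 (-1.48), Pex11a (-1.19), Decr1 (-1.06), Acot12 (-1.06), Eci2 (-1.03), Etfdh (-0.97), Cpt2 (-0.82), Hadha (-0.81), Acadl (-0.77) and Hadhb (-0.50). Both interactions set groups on different slides against each other, so slide and group cannot be told apart.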

How the results depend on the processing

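No called member reversed under any alternative run. Most counts of called members stayed within 1.5 times of those reported; the exceptions follow, and the cause was not tested. With slide as a fixed term, lean 70% against sham had 5 calls in place of 18. Obese against lean at 80% had 7 within the fourth slide, in place of 13. Lean 80% against 70% (6 calls) had 11 with scaling to the 75th percentile, 2 with slide as a random block and 0 when only the groups compared were fitted, a fit with fewer samples. Obese 80% against 70% (0 calls) had 2 without background correction, 2 with an offset of 50, 3 with the 75th percentile, 1 with detection on all 4 arrays of a group, 1 with the mean of a gene's probes and 2 with only the groups compared. The 70% interaction had 7 with slide as a random block, in place of 12.

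Leaving out 1 array gave 15 to 18 calls after lean 70%, 12 to 19 after lean 80%, 10 to 14 after obese 70% and 16 to 18 after obese 80% hepatectomy. Between the diets it gave 18 to 20 after sham surgery, 13 to 16 at 70% and 6 to 10 at 80%. It gave 3 to 14 for lean 80% against 70%, 0 to 2 for obese 80% against 70%, 9 to 13 for the 70% and 14 to 17 for the 80% interaction.

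Scaling to the 75th percentile gave 15 higher and 0 lower after lean 80%, 2 and 10 between the diets at 80%, and 11 and 0 for lean 80% against 70%. Over all genes it moved the share of calls that were higher from 54.1% to 66.1% in the 70% interaction and from 54.8% to 35.8% in obese 80% against 70%. With the replicate block the counts were 18, 18, 12 and 18 after the 4 resections, 20, 16 and 12 between the diets, 5 and 0 between resections, and 11 and 16 for the interactions. Differences near the detection floor are limited by signal over background: Cd36, Crot, Acot2 and, in lean sham liver, Cyp4a14.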
